A study of Mus musculus with 16 samples.

Results

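The cadherins and the nonclustered protocadherins are described here as the genes whose symbol is *Cdh* or *Pcdh* followed by a number alone. This rule reads the symbol and no measured value, and it gave 34 genes of the 19938 genes with a probe set of a single symbol, 23 of them *Cdh* and 11 *Pcdh*. The name classical cadherins covers only a share of them. By role, 5 are type I classical cadherins, 13 are type II classical cadherins and 5 are other cadherins, namely *Cdh13*, *Cdh16*, *Cdh17*, *Cdh23* and *Cdh26*. The protocadherins comprise 3 of the delta-1 kind, 5 of the delta-2 kind and 3 others. Where several probe sets carry a gene, the one of highest mean over the 16 samples stands for it.

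The samples were tooth germs of C57Bl6 mouse embryos at E14.5, the cap stage, when the enamel organ folds around the dental papilla. The tooth types were lower incisor (4 samples), mandibular molar (8 samples) and maxillary molar (4 samples), with no mutation or treatment in any of them. Each sample was RNA of 4 pooled germs on 1 Affymetrix Mouse Gene 1.0 ST array, and all levels below are log2 signals after RMA, the robust multi-array average. The study compared tooth types, and the question for these genes is which of them differ between molar and incisor germs and between the molars of the lower and upper jaw.

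Classical cadherins are calcium-dependent adhesion molecules that bind the same or a closely related cadherin on the neighbouring cell and are tied to actin through catenins. Type I members make strong adherens junctions in epithelia (*Cdh1*, *Cdh3*) or in neural and mesenchymal tissue (*Cdh2*), whereas type II members are expressed in overlapping sets by mesenchyme, neural crest, endothelium and neurons. Delta protocadherins adhere weakly and guide cell sorting and axon growth, and tooth germs are made of an epithelium and a neural crest mesenchyme that each carry their own members.

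By their values mandibular molars 5 to 8 stood closer to the maxillary molars than to mandibular molars 1 to 4, a split for which the labels have no name. The median correlation across all probe sets was 0.9942 between mandibular molars 5 to 8 and the maxillary molars, but 0.9898 between the mandibular molars 5 to 8 and those numbered 1 to 4. Mandibular molars 1 to 4 were about as close to the lower incisors (0.9902) as to mandibular molars 5 to 8, so their place beside the incisors rests on a small difference, and the sets are a description of these values and no known batch. The first set means lower incisors and mandibular molars 1 to 4, and the second set mandibular molars 5 to 8 and maxillary molars. Where a value is given within a set, it comes from samples of that set alone. The sample medians lay between 6.80 and 6.99. The methods set an incisor array aside for high background without naming it, so all 4 are used here and each was left out in turn. This gave 2 to 5 members higher in mandibular molars and 4 to 5 higher in incisors, against 5 and 5 with all 4 arrays, and the members lost are named with their values below. Which animals a pool was taken from is not given in the sources used here, and the p-values therefore cover the spread between these pools, which may be technical in part. In pooled germs, fewer cells of a type and less RNA per cell cannot be told apart.

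Of the 34 genes, 32 lay above a log2 signal of 5 in every sample and entered the tests. *Cdh9* (4.40 to 4.77) and *Cdh19* did not exceed 5 in any sample. *Cdh19*, a type II cadherin of Schwann cell precursors, had 4.95, 5.00, 4.81 and 4.98 in lower incisors. It ran from 4.47 through a median of 4.68 to 4.98 in mandibular molars, and had 4.80, 4.89, 4.49 and 4.44 in maxillary molars.

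Between mandibular molars and lower incisors, 10 of the 32 members tested differed, against 4.93% of all probe sets tested. Higher in mandibular molars were *Cdh4*, *Cdh12*, *Cdh13*, *Pcdh10* and *Pcdh19*, and higher in lower incisors were *Cdh6*, *Cdh7*, *Cdh15*, *Cdh18* and *Cdh20*. The incisor group held 4 type II cadherins and 1 type I cadherin, and no protocadherin. The 2 protocadherins called were both of the delta-2 kind and both higher in molars. A member was called at an adjusted p under 0.1 in limma and a fold change above 1.2. The same rule called 2.75% of the 29258 probe sets tested as higher in mandibular molars and 2.18% as higher in incisors, and 3.91% and 3.09% when the probe sets tested were taken as 1 per gene. The median log2 fold change was 0.00 over the members and -0.02 over all probe sets tested, and the members went to both sides. At a fold change above 2, *Cdh12* was the only member higher in mandibular molars and *Cdh6* the only one higher in incisors, against 0.284% and 0.222% of all probe sets tested. *Cdh4*, *Cdh12*, *Cdh13*, *Cdh15* and *Cdh18* lost their call within the first set, with mandibular molars 1 to 4 alone. All of these but *Cdh18* also lost it without lower incisor 2 or 3. In the plot of all members, the values spread to both sides of 0 on the left and mostly to the negative side on the right.

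**Figure D1:**
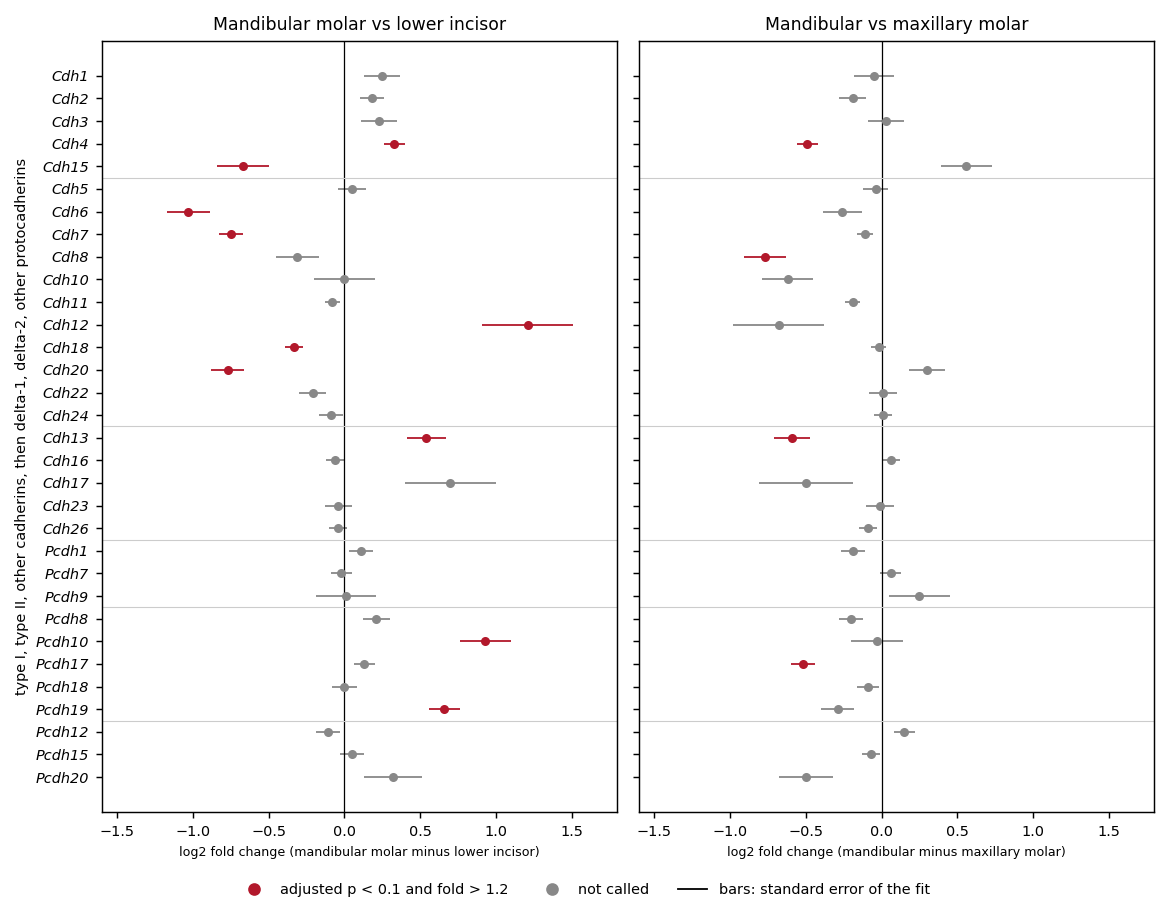
Log2 fold change of the 32 tested cadherins and protocadherins (x axis; rows are genes in order of role) for mandibular molars against lower incisors on the left and against maxillary molars on the right; bars are the SE of the limma fit. Red points passed the test: 10 on the left, 5 to each side, and 4 on the right, all higher in maxillary molars.

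*Cdh6*, a type II cadherin of neural crest and mesenchyme, had log2 signals of 9.82, 9.48, 9.88 and 9.79 in lower incisors. In mandibular molars it ran from 8.44 through a median of 8.64 to 9.15. Every incisor lay above every mandibular molar, and the maxillary molars (8.79 to 9.12) lay below the incisors too. The log2 fold change, with its standard error (SE) from the fit, was -1.03 (SE 0.14, adjusted p = 0.000904), a fold of 2.05, and it was -1.12 (adjusted p = 0.00488) within the first set.

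*Cdh7*, a type II cadherin of migrating neural crest cells, had 6.04, 5.92, 6.41 and 5.99 in lower incisors. It had 5.23 to 5.49 with a median of 5.34 in mandibular molars. The groups did not overlap, and the molar values lay close to the filter of 5. The log2 fold change was -0.75 (SE 0.08, adjusted p = 0.000218), and -0.79 (adjusted p = 0.0136) within the first set.

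*Cdh20*, also a type II cadherin, had 6.71, 6.70, 6.71 and 6.84 in lower incisors. Mandibular molars had 5.60 to 6.29 with a median of 5.98, again with no overlap. These molar values all lay below the lowest sample median of 6.80, and the incisor values lay close to it. Its log2 fold change was -0.77 (SE 0.11, adjusted p = 0.00147), and -0.76 (adjusted p = 0.00697) within the first set. *Cdh6*, *Cdh7* and *Cdh20* were called when any 1 of the 12 samples was left out, with adjusted p of at most 0.00767.

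*Cdh18*, a type II cadherin known from the nervous system, was higher in incisors by a smaller amount. Its levels were 6.23, 6.27, 6.27 and 6.47 in lower incisors, against 5.82 to 6.09 with a median of 6.01 in mandibular molars. All of them lay below the lowest sample median of 6.80. The groups did not overlap, and the log2 fold change was -0.33 (SE 0.06, adjusted p = 0.012). Within the first set it was -0.28 with an adjusted p of 0.158, and the second probe set of the gene gave -0.18 (adjusted p = 0.177).

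**Figure D2:**
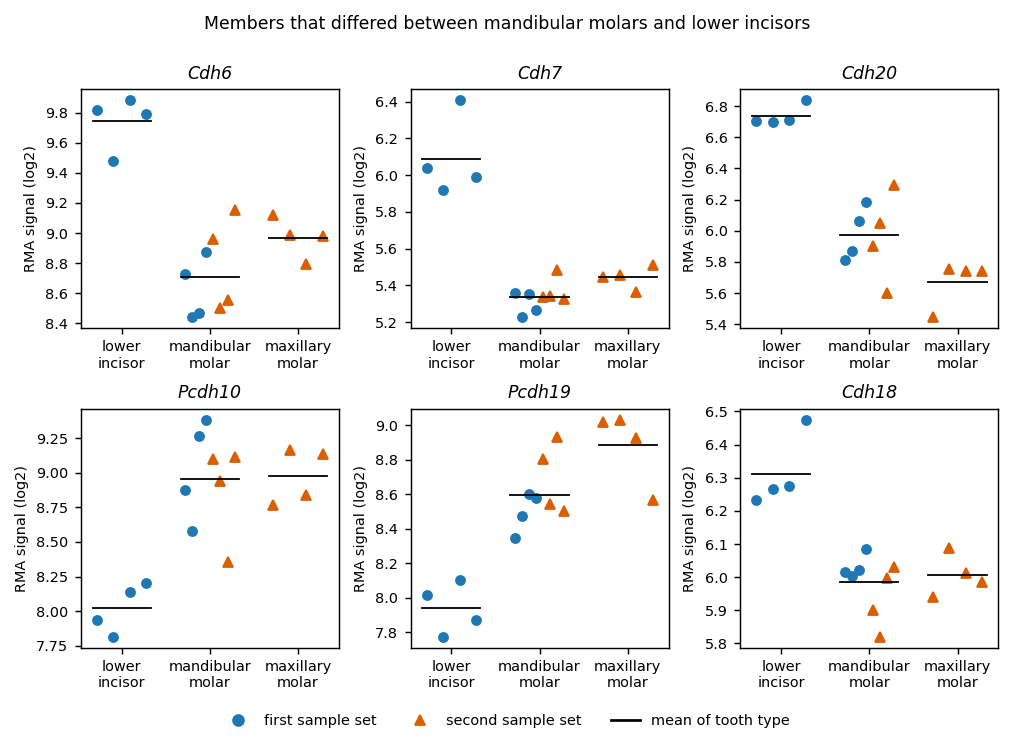
RMA log2 signal (y axis) of 6 members by tooth type (x axis), 1 point per sample, with the mean of each tooth type as a line; blue circles are the first sample set and orange triangles the second. *Cdh6*, *Cdh7*, *Cdh20* and *Cdh18* were higher in all 4 incisors than in any mandibular molar, and *Pcdh10* and *Pcdh19* were lower.

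*Cdh6* and *Cdh18* belong to a row of type II genes on chromosome 15. In the RefSeq gene order no other protein-coding gene lies between *Cdh6* and *Cdh9*, between *Cdh9* and *Cdh10* or between *Cdh10* and *Cdh12*, and 1 lies between *Cdh12* and *Cdh18*. These neighbours did not move together, since *Cdh12* was higher in molars, *Cdh10* had a log2 fold change of 0.00 (95% interval -0.45 to 0.45) and *Cdh9* was not above 5. *Cdh7* and *Cdh20*, both higher in incisors, lie on chromosome 1 with 21 protein-coding genes between them. *Cdh19*, next to *Cdh7*, was not above 5.

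The stretches of 250 bases before the transcription start of *Cdh6* and *Cdh7* are shown because these are the incisor members with the largest fold and the smallest adjusted p. They come from RefSeq on GRCm38.p6, chr15:13173676-13173925 on the minus strand for *Cdh6* and chr1:109982650-109982899 on the plus strand for the first of 3 listed starts of *Cdh7*. Both are written 5′ to 3′ on the strand of the gene. Capitals mark GGGCGG, the GC box, in *Cdh6* (2 overlapping matches) and CAGGTG, an E-box of the kind that Snail and Zeb repressors bind, in *Cdh7*.
Cdh6: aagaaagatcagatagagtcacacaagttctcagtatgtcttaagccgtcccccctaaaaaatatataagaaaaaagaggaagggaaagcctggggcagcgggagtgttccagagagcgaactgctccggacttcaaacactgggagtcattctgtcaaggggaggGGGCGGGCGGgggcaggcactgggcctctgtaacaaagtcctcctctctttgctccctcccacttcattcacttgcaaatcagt
Cdh7: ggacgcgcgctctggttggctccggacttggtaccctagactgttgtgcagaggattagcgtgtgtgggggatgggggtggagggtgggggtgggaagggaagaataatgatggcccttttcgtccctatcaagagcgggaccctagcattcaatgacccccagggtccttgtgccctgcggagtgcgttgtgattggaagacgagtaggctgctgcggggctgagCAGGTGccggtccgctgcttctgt
Promoter windows of 22 of the 34 members were used, 25 windows in all, since *Cdh7* has 3 and *Pcdh9* a pair that overlap. *Cdh2*, *Pcdh1* and *Pcdh12* were among the members left out, so the motif counts and CpG medians of members do not cover them. Whether the members left out have a listed promoter was not examined. Each window was searched on both strands for the GC box, a pair of E-boxes, a TATA box and a homeodomain core, none of which contains another. The GC box was found in 9 of the 25 windows, those of 9 different genes, against 32.7% of all 32851 promoters in the table. The E-box CAGGTG was found for *Cdh7* and *Pcdh15* (17.2% of all promoters). The other E-box, CAGCTG, was found for *Cdh9* and *Cdh12* (13.0%). The TATA box, TATAAA, was found for *Pcdh8* and *Pcdh15* (12.4%). The homeodomain core, TAATTA, was found for *Cdh7* alone (4.8%), in another of its windows. *Cdh20* had none of the 5 motifs. These are matches of letters and not measured binding.

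*Pcdh10*, a delta-2 protocadherin with a role in axon growth, had 7.94, 7.81, 8.14 and 8.20 in lower incisors. It ran from 8.35 through a median of 9.02 to 9.38 in mandibular molars. No incisor reached the lowest molar, and the maxillary molars (8.77 to 9.17) lay in the range of the mandibular ones. In the fit the log2 fold change was 0.93 (SE 0.17, adjusted p = 0.00858), and 1.00 (adjusted p = 0.0367) within the first set.

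*Pcdh19*, a delta-2 protocadherin that binds N-cadherin, had 8.02, 7.77, 8.10 and 7.87 in lower incisors and 8.35 to 8.93 with a median of 8.56 in mandibular molars. The groups did not overlap. The log2 fold change was 0.66 (SE 0.10, adjusted p = 0.00303), and 0.56 (adjusted p = 0.0298) within the first set. Both genes remained past the test whichever of the 12 samples was left out.

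The 250 bases before the start of these delta-2 protocadherins, and of *Pcdh17*, which differed between the molars as described further on, are shown because they share the GC box and a high number of CpG. RefSeq places them on GRCm38.p6 at chr3:45378148-45378397, plus strand, for *Pcdh10*, at chrX:133688994-133689243, minus strand, for *Pcdh19* and at chr14:84443313-84443562, plus strand, for *Pcdh17*. Capitals mark the GC box, here as its reverse complement CCGCCC.
Pcdh10: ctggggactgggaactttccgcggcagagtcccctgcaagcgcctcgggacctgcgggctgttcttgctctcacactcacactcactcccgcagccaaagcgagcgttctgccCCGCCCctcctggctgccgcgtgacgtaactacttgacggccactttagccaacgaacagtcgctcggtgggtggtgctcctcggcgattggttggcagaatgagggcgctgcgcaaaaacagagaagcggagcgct
Pcdh19: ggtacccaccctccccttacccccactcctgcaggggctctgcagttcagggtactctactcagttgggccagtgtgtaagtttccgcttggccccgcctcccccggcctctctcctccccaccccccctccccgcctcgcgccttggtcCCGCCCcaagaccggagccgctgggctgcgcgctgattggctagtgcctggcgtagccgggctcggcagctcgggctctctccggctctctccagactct
Pcdh17: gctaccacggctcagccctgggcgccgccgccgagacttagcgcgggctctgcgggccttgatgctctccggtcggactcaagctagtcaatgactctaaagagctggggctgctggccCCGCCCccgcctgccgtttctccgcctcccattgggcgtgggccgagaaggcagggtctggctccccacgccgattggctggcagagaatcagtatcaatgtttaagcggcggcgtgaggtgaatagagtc
The 3 windows hold 22, 16 and 21 CpG, and that of *Pcdh18*, a delta-2 gene that was not called in either comparison, holds 23. The window of *Pcdh8*, the other delta-2 gene, holds 11 and no GC box. The median was 17 over the 10 *Pcdh* windows, 7 over the 15 *Cdh* windows and 6 over all promoters. Among the *Cdh* windows, those of *Cdh22*, *Cdh24* and *Cdh8* held 30, 22 and 20, whereas *Cdh6* held 6 and *Cdh20* 10.

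*Cdh4*, or R-cadherin, a type I cadherin of retina, brain and muscle, had 8.07, 8.02, 8.03 and 8.26 in lower incisors. It had 8.32 to 8.69 with a median of 8.37 in mandibular molars, and 8.93, 8.86, 9.06 and 8.81 in maxillary molars. The 3 tooth types were thus ordered with no overlap between neighbours. Its log2 fold change was 0.33 (SE 0.07, adjusted p = 0.0296) for mandibular molars against incisors and -0.49 (SE 0.07, adjusted p = 0.00524) against maxillary molars. Within the first set the difference from incisors was 0.32 with an adjusted p of 0.113. Within the second set the difference from maxillary molars was -0.49 (adjusted p = 0.0724). The comparison with incisors lost its call without lower incisor 2 or 3, with an adjusted p of up to 0.106.

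*Cdh13*, or T-cadherin, which is held in the membrane by a lipid anchor and lacks the cytoplasmic tail that binds catenins, showed the same order. It had 8.36, 8.09, 8.19 and 8.45 in lower incisors, 8.41 to 9.02 with a median of 8.90 in mandibular molars and 9.38, 9.26, 9.37 and 9.61 in maxillary molars. Incisors and mandibular molars overlapped at their edges, whereas maxillary molars lay above all mandibular ones. In the fit the log2 fold change was 0.54 (SE 0.13, adjusted p = 0.0346) against incisors and -0.59 (SE 0.12, adjusted p = 0.0384) against maxillary molars. Within the first set it was 0.38 (adjusted p = 0.408), and within the second set -0.43 (adjusted p = 0.0477). The call against incisors was lost without lower incisor 2 or 3 (adjusted p up to 0.122), and that against maxillary molars without maxillary molar 1 or 4 (adjusted p up to 0.13). The mean of 11 dental mesenchyme markers, each above 5 in some sample, ran in the same order as *Cdh4* and *Cdh13*. It was 9.58 to 9.81 in incisors, 9.81 to 10.26 in mandibular and 10.22 to 10.35 in maxillary molars. Of these markers 4 were higher in mandibular molars than in incisors (4.93% of all probe sets were called). Between the molars 1 was higher in mandibular and 2 in maxillary molars (2.18% of all probe sets). The genes chosen for the list include *Lhx6* and *Lhx8*, which the paper lists as differing between tooth types. Its mean thus does not measure mesenchyme content alone. The part of mesenchyme content in the values of *Cdh4* and *Cdh13* was not tested.

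Between mandibular and maxillary molars, 4 of the 32 members differed, against 2.18% of all probe sets tested, and all 4 were higher in maxillary molars: *Cdh4*, *Cdh8*, *Cdh13* and *Pcdh17*. Of all probe sets tested, 1.18% were called as higher in maxillary and 1.01% as higher in mandibular molars, or 1.59% and 1.40% as 1 per gene. No member was called as higher in mandibular molars by limma. At an unadjusted p under 0.05, 2 members were higher in mandibular and 11 in maxillary molars, and the methods' t-test called 0 and 4. The median log2 fold change was -0.09 over the members and 0.02 over all probe sets tested. At a fold change above 2 no member was called in either direction, against 0.0998% of all probe sets higher in mandibular and 0.0963% in maxillary molars. The 4 calls were also made with mandibular molars 5 to 8 alone, within the second set. Both comparisons share the mandibular molar samples.

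*Cdh8*, a type II cadherin of the developing nervous system, had 8.21, 7.77, 7.70 and 7.51 in maxillary molars. It had 6.78 to 7.33 with a median of 6.98 in mandibular molars, with no overlap, and 7.43, 6.97, 7.29 and 7.66 in lower incisors. The log2 fold change against maxillary molars was -0.77 (SE 0.14, adjusted p = 0.0173), and -0.87 (adjusted p = 0.0679) within the second set. Against incisors it was -0.31 (SE 0.14, adjusted p = 0.256). *Pcdh17*, a delta-2 protocadherin whose promoter window is shown above, had 9.21, 8.96, 9.02 and 8.88 in maxillary molars. It had 8.35 to 8.65 with a median of 8.50 in mandibular molars and 8.38, 8.42, 8.44 and 8.22 in lower incisors. Maxillary molars stood above both other tooth types. Its log2 fold change was -0.52 (SE 0.08, adjusted p = 0.00475), and -0.49 (adjusted p = 0.0435) within the second set. Against incisors it was 0.13 (SE 0.07, adjusted p = 0.329).

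**Figure D3:**
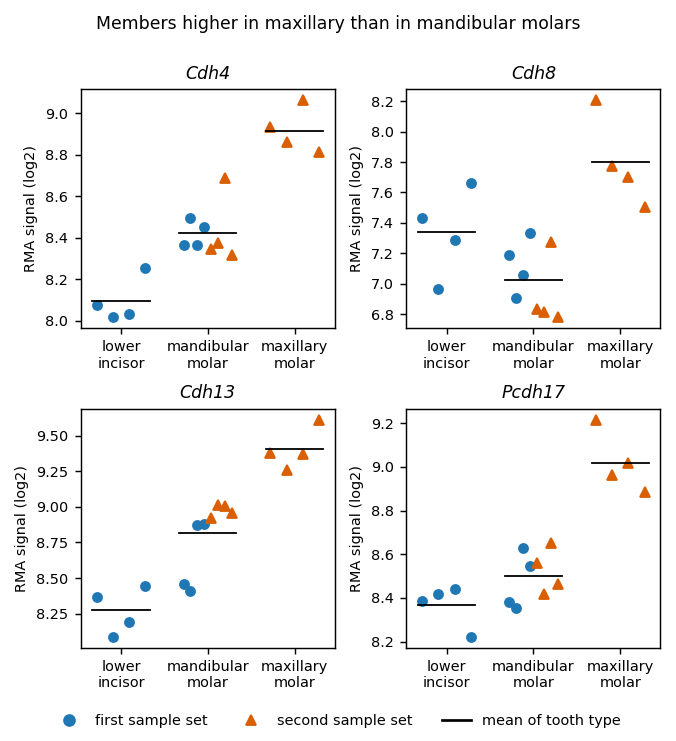
RMA log2 signal (y axis) of the 4 members called between mandibular and maxillary molars, by tooth type (x axis), 1 point per sample, with the mean of each tooth type as a line; circles are the first sample set and triangles the second. All 4 maxillary molars lie above all 8 mandibular molars in each plot, and also above the 4 mandibular molars of their own set.

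A few members came near the call between the molars. *Cdh10*, a type II cadherin, had a log2 fold change of -0.62 (SE 0.17, adjusted p = 0.108), and its groups overlapped. *Pcdh20* had -0.50 (adjusted p = 0.214) with all maxillary molars above all mandibular ones, but -0.20 (adjusted p = 0.226) within the second set. In the other direction, *Cdh15* had 0.56 (SE 0.17, adjusted p = 0.140) with all mandibular molars above all maxillary ones. *Cdh11*, or OB-cadherin, the type II cadherin of mesenchyme and osteoblasts, had 12.46, 12.39, 12.30 and 12.37 in maxillary molars and 12.04 to 12.26 with a median of 12.20 in mandibular molars. The groups did not overlap, but the fold was 1.14 and so below the limit of 1.2 (log2 fold change -0.19, SE 0.05, adjusted p = 0.0936). Lower incisors had 12.31, 12.19, 12.24 and 12.30, a log2 fold change of -0.08 (SE 0.05, adjusted p = 0.444). Counting members whose samples did not overlap, 6 were higher in maxillary and 1 in mandibular molars, against 2.02% and 2.08% of all probe sets tested. Against incisors these counts were 4 higher in mandibular molars and 4 in incisors, against 1.92% and 1.77%.

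The cadherins that mark the main tissues of a tooth germ were not called in either comparison. *Cdh1*, or E-cadherin, of epithelial junctions, had 9.75, 10.03, 10.04 and 9.88 in lower incisors, 9.76 to 10.56 with a median of 10.18 in mandibular molars and 10.00, 10.21, 10.16 and 10.54 in maxillary molars. In the fit the log2 fold change was 0.25 (SE 0.12, adjusted p = 0.286) against incisors and -0.05 (SE 0.13, adjusted p = 0.841) against maxillary molars. *Cdh3*, or P-cadherin, of basal epithelial cells, had 10.00, 9.84, 10.12 and 10.25 in incisors, 9.79 to 10.49 with a median of 10.34 in mandibular molars and 10.15, 10.15, 10.29 and 10.42 in maxillary molars. All 3 tooth types overlapped. Its log2 fold changes were 0.23 (SE 0.12, adjusted p = 0.327) and 0.03 (SE 0.12, adjusted p = 0.889).

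For both epithelial cadherins, mandibular molar 2 was the lowest mandibular sample, and it was also lowest for the mean of 11 oral and dental epithelium markers (9.86, against 10.35 to 10.70 in the other mandibular molars). Without that sample, *Cdh1* and *Cdh3* were called as higher in mandibular molars than in incisors. With mandibular molars 5 to 8 alone the log2 fold changes against incisors were 0.41 (adjusted p = 0.0242) and 0.38 (adjusted p = 0.0247), but within the first set both were 0.09 (adjusted p = 0.929 and 0.941). Of the 11 epithelium markers, 2 were higher in mandibular molars than in incisors, *Krt17* (log2 fold change 0.80) and *Grhl2* (0.40), and none was at or below 5 in every sample. The part of epithelium content in the values of *Cdh1* and *Cdh3* was not tested.

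*Cdh2*, or N-cadherin, of mesenchyme and neurons, had 10.30, 10.39, 10.15 and 10.34 in lower incisors, 10.29 to 10.68 with a median of 10.48 in mandibular molars and 10.86, 10.67, 10.63 and 10.47 in maxillary molars. The log2 fold changes were 0.18 (SE 0.08, adjusted p = 0.270) and -0.19 (SE 0.09, adjusted p = 0.297), so its means followed the order of *Cdh4* and *Cdh13* but did not pass the test. *Cdh5*, or VE-cadherin, of endothelial junctions, had 10.82, 10.82, 10.70 and 10.98 in incisors, 10.63 to 11.07 with a median of 10.90 in mandibular molars and 10.99, 10.89, 10.90 and 10.88 in maxillary molars. Its log2 fold changes were 0.05 (95% interval -0.16 to 0.25, SE 0.09, adjusted p = 0.809) and -0.04 (95% interval -0.23 to 0.15, SE 0.08, adjusted p = 0.806). The mean of 12 endothelium markers lay between 9.02 and 9.31 in all samples, and 1 of them, *Sox18*, was called, as higher in incisors (-0.43). *Pcdh18*, a delta-2 protocadherin, had 11.57, 11.25, 11.35 and 11.50 in incisors, 11.27 to 11.58 with a median of 11.41 in mandibular molars and 11.53, 11.49, 11.53 and 11.50 in maxillary molars. Its log2 fold changes were 0.00 (SE 0.08, adjusted p = 0.985) and -0.09 (SE 0.07, adjusted p = 0.460).

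*Cdh15*, or M-cadherin, a type I cadherin of muscle precursors and satellite cells, had 8.26, 8.48, 8.53 and 8.26 in lower incisors. It had 7.32 to 8.41 with a median of 7.76 in mandibular molars and 7.10, 7.00, 7.17 and 7.32 in maxillary molars. Incisors and mandibular molars overlapped only through mandibular molar 2, and every mandibular molar lay above every maxillary one. The log2 fold change was -0.67 (SE 0.17, adjusted p = 0.0481) against incisors and 0.56 against maxillary molars, as given above. Within the first set the difference from incisors was -0.45 (adjusted p = 0.386), and within the second set the difference from maxillary molars was 0.33 with an adjusted p of 0.245. Without lower incisor 2 or 3 the call against incisors was lost (adjusted p up to 0.163).

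The skeletal muscle markers moved with *Cdh15*. The mean log2 signal of the 16 markers, none of them at or below 5 in every sample, spanned 8.26 to 8.44 in the incisor samples, 7.27 to 8.53 in the mandibular and 6.53 to 6.96 in the maxillary molars. The highest mandibular sample was mandibular molar 2 for the list (8.53) and for *Cdh15* (8.41). Of the 16 markers, 6 were higher in incisors than in mandibular molars, among them *Actc1* (log2 fold change -0.97, adjusted p = 0.0736), and 13 were higher in mandibular than in maxillary molars, among them *Myh3* (2.14, adjusted p = 0.00255). The part of muscle content in the values of *Cdh15* was not tested. Markers of cartilage (9 of 12 higher in incisors), mast cells (5 of 7 tested higher in incisors and 1 in mandibular molars) and keratinizing epithelium (4 of 11 higher in incisors) also differed. The cartilage mean was uneven between the incisors, at 8.55, 7.43, 7.64 and 8.57, against 7.15 to 7.34 in mandibular molars. The mean of 11 neuron markers was 7.26 to 7.43 in incisors, 6.81 to 7.28 in mandibular and 6.72 to 6.87 in maxillary molars. Against incisors 3 of them were higher in incisors, among them *Isl1* (log2 fold change -2.33) and *Stmn2* (-1.78), and 1, *Nefl* (1.42), was higher in mandibular molars. The median log2 fold change over the neuron list was -0.04. The paper lists *Isl1* as a gene already known to be higher in incisors, so its value does not measure neuron content alone. The mean of 9 Schwann cell and glia markers was 8.02 to 8.26 in incisors, 7.87 to 8.10 in mandibular and 7.86 to 7.97 in maxillary molars, and 2 of them, *Sox10* (-0.36) and *Foxd3* (-0.26), were higher in incisors. The part of these cell types in the values of the incisor members, *Cdh7* and *Cdh18* included, was not tested.

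**Figure D4:**
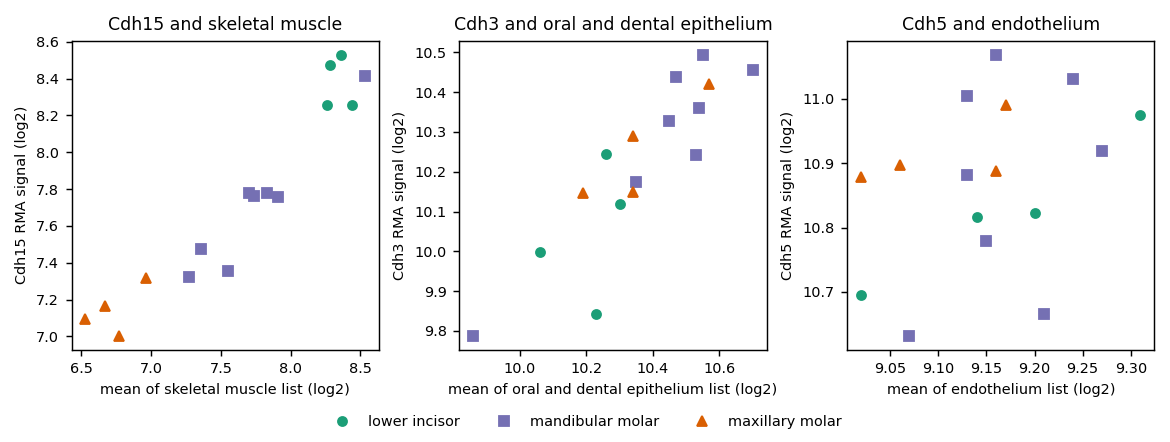
RMA log2 signal of *Cdh15*, *Cdh3* and *Cdh5* (y axes) against the mean log2 signal of the skeletal muscle, oral and dental epithelium and endothelium marker lists in the same sample (x axes); 1 point per sample, shape and colour give the tooth type. The *Cdh15* plot runs from the maxillary molars (list mean 6.53 to 6.96) to the lower incisors (8.26 to 8.44), with mandibular molar 2 at 8.53, while *Cdh5* shows no such order.

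*Cdh12*, a type II cadherin known from brain, had the largest log2 fold change of any member against incisors, 1.21 (SE 0.30, adjusted p = 0.0478). Its levels were 6.55, 6.76, 6.58 and 6.85 in lower incisors, 7.28, 6.93, 7.43 and 7.70 in mandibular molars 1 to 4, 8.43, 8.40, 8.26 and 8.75 in those numbered 5 to 8 and 8.55, 8.41, 8.51 and 8.82 in maxillary molars. The signal in mandibular molars thus differed with the sample set, with no overlap between samples 1 to 4 and 5 to 8. The difference from incisors was 0.65 with an adjusted p of 0.132 within the first set. Between mandibular and maxillary molars it was -0.68 (SE 0.30, adjusted p = 0.284) with all samples, but -0.12 (adjusted p = 0.742) within the second set. The call against incisors was also lost without lower incisor 1, 2 or 3.

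*Cdh17*, or LI-cadherin of intestinal epithelium, and *Pcdh20* followed the sets in the same way. *Cdh17* had 5.43, 5.21, 5.53 and 6.17 in mandibular molars 1 to 4 and 6.68, 6.75, 6.56 and 6.76 in 5 to 8, with 5.24 to 5.58 in incisors and 6.47 to 6.83 in maxillary molars. Its values in incisors and in mandibular molars 1 to 3 lay close to the filter of 5. *Pcdh20* had 6.64, 6.57, 6.26 and 7.00 in mandibular molars 1 to 4 and 7.30, 7.11, 7.26 and 7.22 in 5 to 8. In both genes mandibular molar 4 stood nearest to the second set. The log2 fold change of samples 1 to 4 against 5 to 8 was -1.12 (adjusted p = 0.0121) for *Cdh12*, -1.11 (adjusted p = 0.0152) for *Cdh17* and -0.61 (adjusted p = 0.0372) for *Pcdh20*. These 3 were the only members called, and 0 were called as higher in samples 1 to 4 by limma and by the methods' t-test, where 3 had an unadjusted p under 0.05. Of all probe sets tested, 7.29% were called as higher in samples 5 to 8 and 4.49% as higher in samples 1 to 4. Since the sets were seen in the values, this comparison describes them and is no comparison of the study.

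**Figure D5:**
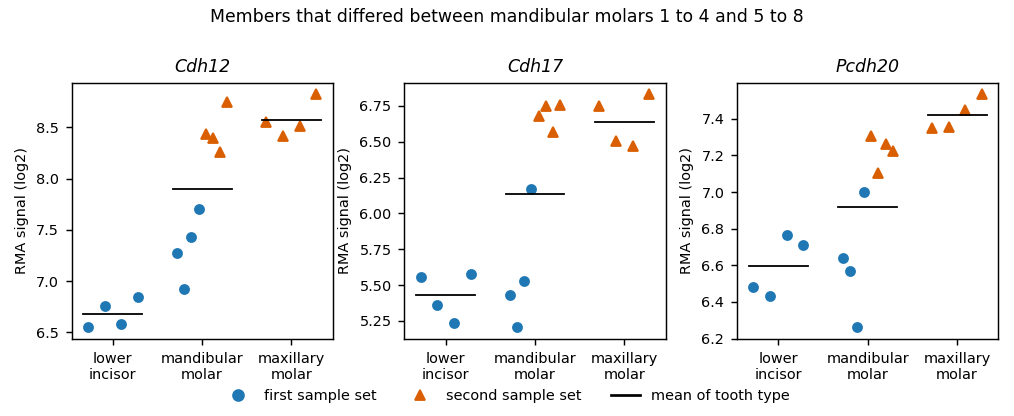
RMA log2 signal (y axis) of the 3 members that differed between mandibular molars 1 to 4 (circles in the middle column) and 5 to 8 (triangles), with lower incisors and maxillary molars beside them (x axis); 1 point per sample, lines are means of the tooth types. In mandibular molars *Cdh12* has 6.93 to 7.70 in the first sample set and 8.26 to 8.75 in the second.

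The remaining members were not called in either comparison of tooth types. Among the other cadherins, *Cdh16*, *Cdh23* and *Cdh26* had log2 fold changes between -0.09 and 0.06 in both comparisons. The delta-1 protocadherins *Pcdh1*, *Pcdh7* and *Pcdh9* had 0.11, -0.02 and 0.01 against incisors and -0.19, 0.06 and 0.25 against maxillary molars. *Pcdh9* had the widest spread of them, 8.41 to 9.45 in mandibular molars. *Cdh22* and *Cdh24*, type II cadherins, had -0.21 (adjusted p = 0.235) and -0.09 (adjusted p = 0.529) against incisors and 0.01 in both cases against maxillary molars. *Pcdh8* had 0.21 (adjusted p = 0.243) and -0.20 (adjusted p = 0.244). *Pcdh12*, a protocadherin of endothelium, had -0.11 and 0.15, neither of which passed.

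The 4 genes with a pair of probe sets were *Cdh18*, *Cdh24*, *Pcdh9* and *Pcdh15*. For *Pcdh15*, the tip-link partner of *Cdh23* in hair cells, the probe sets disagreed. The probe set with the higher mean had a log2 fold change of 0.05 (adjusted p = 0.758) against incisors, and the other, with means of 6.10 in incisors, 6.61 in mandibular molars and 6.85 in maxillary molars, had 0.51 (SE 0.10, adjusted p = 0.0151). *Cdh11* also had 3 probe sets shared with other symbols, which were left out. Their means were 12.29, 11.25 and 12.16 in incisors, 12.15, 11.12 and 12.09 in mandibular molars and 12.16, 11.20 and 12.15 in maxillary molars. The rise in maxillary molars was thus smaller there than in the probe set of *Cdh11* alone.

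Some catenins and other partners were called. For the lists here and in the next paragraphs, the share called over all probe sets tested was 4.93% against incisors and 2.18% between the molars. Of 15 catenins and linkers, 2 were higher in mandibular molars than in incisors, *Vcl* (vinculin, log2 fold change 0.60, adjusted p = 0.0119) and *Plekha7* (0.43, adjusted p = 0.00946), and 1 was higher in incisors, *Ctnna2*, the neural alpha-catenin (-0.97, SE 0.08, adjusted p = 2.45e-05). *Lmo7*, an afadin-binding linker, was the only one called between the molars (-0.41, adjusted p = 0.0384). The median over the list was 0.13 against incisors and 0.02 against maxillary molars.

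Of 10 desmosomal genes tested against incisors, *Pkp2* alone was called (-0.30, adjusted p = 0.0351), and of 9 against maxillary molars *Dsg1b* alone (0.56, adjusted p = 0.0873). *Dsc1*, which the paper names among genes higher in incisors with an incisor array set aside, was not among the genes called here. Among 17 other nonclustered cadherin superfamily genes, *Clstn2*, a calsyntenin of synapses, had the largest difference, 9.54 ± 0.11 (SD, n = 8) in mandibular molars against 8.04 ± 0.16 (SD, n = 4) in incisors, a log2 fold change of 1.50 (SE 0.08, adjusted p = 3.22e-07). The giant cadherin *Fat1* was higher in mandibular molars than in incisors (0.28, adjusted p = 0.0704) and lower than in maxillary molars (-0.28, adjusted p = 0.0509), and *Fat4*, named after its values were seen, was higher in incisors (-0.27, adjusted p = 0.0755). Between the molars *Cdhr1* (0.71, adjusted p = 0.0181) and *Pcdh11x* (-0.55, adjusted p = 0.0859) were called as well. The medians were 0.12 and 0.22 over the desmosomal genes and 0.08 and 0.00 over the superfamily genes.

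None of the 13 cadherin repressors and cadherin-cleaving proteases was called by limma in either comparison. At an unadjusted p under 0.05, 2 were higher in mandibular molars and 3 in incisors, and 1 was higher in mandibular and 2 in maxillary molars. The methods' t-test called 0 in both. The medians were -0.07 and 0.06. *Tcf4*, an E-protein, had 11.45 ± 0.26 (SD, n = 4) in incisors against 11.31 ± 0.09 (SD, n = 8) in mandibular molars, a difference of -0.14 (SE 0.09, adjusted p = 0.431).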

How the data were processed

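RNA of 4 pooled tooth germs per sample was hybridized to 1 array. The authors deposited log2 signals of 35556 probe sets, made by RMA in Affymetrix Expression Console 1.1 (background correction, quantile normalization, median polish), and these were used unchanged. An array gives no read depth, so the number of samples limits the precision. Of the probe sets 21789 had 1 gene symbol, 1621 several and 12146 none, and only the first kind was named.

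Probe sets above 5 in at least 1 compared sample were fitted with lmFit and eBayes (limma 3.58.1, R 4.3.3) on the samples of each comparison, with Benjamini-Hochberg adjustment over all of them. A call needed an adjusted p under 0.1 and a fold change above 1.2. A positive log2 fold change means higher in mandibular molars. The procedure was tested on simulated data. The methods leave out an incisor array for high background at hybridization and do not name it, so all 4 were used, and a faulty array may be among them.

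Members called between tooth types, *Cdh1*, *Cdh2*, *Cdh3*, *Cdh5*, *Cdh11*, *Cdh15*, *Cdh19* and the 4 members of highest mean are given in full, the others by range. Of each gene list at most 4 called genes are named, or the one of highest mean, except that *Fat4* was added to the superfamily genes. The members, lists and alternatives were chosen with earlier results of these data known. Names and gene order came from RefSeq (GRCm38.p6). Alternatives were other filters, normalizations, thresholds and tests, array weights, 1 fit of all tooth types, gene-level values, a replicate block, molars of 1 sample set and each sample left out. Of the marker lists fixed for neurons, Schwann cells and glia, osteoblasts, dental mesenchyme and macrophages, 4 of 11, 2 of 9, 1 of 5, 4 of 11 and 2 of 10 genes were called between mandibular molars and incisors, and 3 of 11, 0 of 9, 2 of 5, 3 of 11 and 0 of 10 between the molars.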

Additional observations from a re-analysis of the deposited data

Results flagged for a closer look

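Each of the 34 members was looked at in each of the 3 tooth types for 1 sample standing apart from the rest, 102 groups in all, by the gap of the highest or lowest sample to its neighbour relative to the range. Chance flags about 1 in 20 groups, and 5 stood apart here. *Cdh15* was high in mandibular molar 2, at 8.41 against 7.78 in the next sample. *Cdh3* was low in the same sample, at 9.79 against 10.17. *Cdh20* was high in lower incisor 4 (6.84, against 6.71) and low in maxillary molar 1 (5.45, against 5.74). *Cdh5* was high in maxillary molar 1, at 10.99 against 10.90.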

How the results depend on the processing

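Against incisors, the count of members higher in mandibular molars was 5 and that higher in incisors 5. At a fold change above 2 the counts were 1 and 1, *Cdh12* and *Cdh6*. With a replicate block, or with mandibular molars 1 to 4 only, they were 2 and 3, namely *Pcdh10*, *Pcdh19*, *Cdh6*, *Cdh7* and *Cdh20*. With array weights the count higher in molars was 10, and with mandibular molars 5 to 8 only also 10. Leaving out 1 sample gave 2 to 8 higher in molars and 4 to 5 higher in incisors. The lowest counts came without lower incisor 2 or 3, which lost *Cdh4*, *Cdh12*, *Cdh13* and *Cdh15*, and the highest without mandibular molar 2, which gained *Cdh1*, *Cdh3* and *Cdh17*. The methods' t-test lost *Cdh12*, and quantile normalization and cyclic loess lost *Cdh18*. The mean of all probe sets of a gene gave 6 and 4, with *Cdh18* lost and *Pcdh15* gained as higher in molars.

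Between the molars, 0 members were higher in mandibular and 4 in maxillary molars. The count higher in mandibular molars was 1 (*Cdh15*) with array weights, all 3 tooth types in 1 fit, 1 probe set per gene and the mean of all probe sets. With a replicate block, or with mandibular molars 1 to 4 only, the counts were 3 and 12, which sets the first sample set against the second. At a fold change above 2 there were 0 and 0. Leaving out 1 sample gave 0 to 1 and 3 to 5. Without maxillary molar 1 or 4 *Cdh13* was lost, and without mandibular molar 2 or 7 *Cdh15* was gained. *Cdh4*, *Cdh8* and *Pcdh17* were called under all alternatives but the fold above 2.

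Between mandibular molars 1 to 4 and 5 to 8 the counts were 0 and 3. Array weights, all 3 tooth types in 1 fit, 1 probe set per gene and the mean of all probe sets gave 2 and 5, and a filter above 6 and quantile normalization gave 1 higher in samples 1 to 4. Leaving out 1 sample gave 0 to 2 and 2 to 7, the highest without mandibular molar 4 and the lowest without 5, which lost *Pcdh20*.

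Same-numbered samples correlated at 0.08 to 0.51 between incisors and mandibular molars and at 0.00 to 0.34 between the molars, in their deviations from the group means, and the same-numbered sample was the best partner for 2 of 4 incisors and 2 of 4 maxillary molars. Not every pair was above 0.1, and the labels tie no numbers to a shared animal or day, so the numbers were not taken as pairs. Under the replicate block mandibular molars 5 to 8 have no partner. No called log2 fold change of a named member changed sign under any alternative.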
